A study of Mus musculus with 2 samples.

Results

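The 10 genes described here mark macrophages and other myeloid cells, and were taken by name from a list: Spi1, Csf1r, Adgre1, Cd68, Mrc1, Lyz2, Ptprc, Cx3cr1, C1qa and C1qb. All 10 are annotated, among 21938 protein-coding genes of GENCODE release M21 on the mouse build mm10 (GRCm38). DNase-seq, in which open chromatin is cut by the nuclease DNase I and the cut sites are sequenced, was run on gastrocnemius, the calf muscle, of female B6CASTF1/J mice aged 2 months. These mice are first-generation hybrids of a C57BL/6J and a CAST/EiJ parent, with no other treatment or allele in the labels. The single group held 2 libraries, numbered as biological replicates 1 and 2, and their biosamples carry 1 donor identifier, so separate animals are not established. No groups could be compared and no test was made.

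Macrophages live in skeletal muscle between the fibres, where they clear debris and take part in repair. Spi1 encodes PU.1, the transcription factor that specifies the myeloid lineage, and Csf1r encodes the receptor for the growth factors CSF1 and IL-34, on which macrophages depend. The tissue is a mixture of cell types, and the cells behind a peak are not known. Fewer nuclei of a type and less accessibility per nucleus cannot be told apart in such data.

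Each gene was examined over its annotated body plus 10 kb on either side, called its window. A promoter peak has its midpoint within 1 kb of an annotated transcript start, any other peak in the window is distal, and a shared peak is the merged interval of peaks that overlap between the libraries. Peak strength is the authors' signal value, whose scale is not stated, given with the percentage of that library's peaks that were stronger. Replicate 1 had 66984 peaks and replicate 2 had 258342, and sequencing depth is unknown. Muscle fibre genes checked the tissue: 10 of 10, among them Ckm and Acta1, had a promoter peak in both libraries.

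Only C1qa and C1qb had a promoter peak in both libraries, and with the shorter peak lists, or with only peaks above each list's median strength, no member did. The lists differ in length, so the median cuts them at unlike ranks. In replicate 1 the promoter was called in 2 of 10 members, against 60.7% of protein-coding genes. In replicate 2 it was called in 7 of 10, against 70.8%: Spi1, Csf1r, Adgre1, Cd68, Cx3cr1, C1qa and C1qb. In both it was called in 2 of 10, against 60.0%. Mrc1, Lyz2 and Ptprc had no promoter peak in either library. Around their first base all 10 genes are poor in CpG dinucleotides, with an observed over expected ratio from 0.0981 to 0.286, while the median gene had 0.552. Among the 5285 genes within that range, 20.4% had a promoter peak in replicate 1, 36.1% in replicate 2 and 19.5% in both. Set beside genes of like CpG content, 2 of 10 in both libraries is the background share and 7 of 10 in replicate 2 is above it. The ratio was taken at a gene's first base only, while a promoter peak could lie at any annotated start. Members have from 1 start (Lyz2, C1qa and C1qb) to 12 (Ptprc), and the number of starts was not matched. When replicate 2 was cut to its 66984 strongest peaks, 4 of 10 kept a promoter peak (Spi1, Cd68, C1qa and C1qb). The share of all genes, or of genes of like CpG content, was not computed at this cut. Whether 4 of 10 is above the background is therefore not known.

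C1qa and C1qb encode chains of C1q, the recognition protein of the classical complement pathway, which tissue macrophages make. They lie with C1qc on the minus strand of chromosome 4. At C1qa (chr4:136895917-136898803) the promoter peak had a signal of 0.603 in replicate 1, with 60.2% of peaks stronger, and 1.14 in replicate 2, with 15.9% stronger. At C1qb (chr4:136880129-136886187) the signal was 0.544 in replicate 1, with 65.2% stronger, and 1.23 in replicate 2, with 14.7% stronger. In replicate 1 both peaks were thus weaker than the median peak of the list, and in replicate 2 both were stronger. The lists differ in length, so these percentages are not alike between libraries. By rank, C1qa was 40309 in replicate 1 and 41118 in replicate 2, and C1qb was 43648 and 37971. C1qc, which encodes the remaining chain, had a promoter peak in replicate 2 alone, with a signal of 0.751. Replicate 2 had 1 further distal peak between C1qc and C1qb with a signal of 0.829, and replicate 1 had none there.

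**Figure D1:**
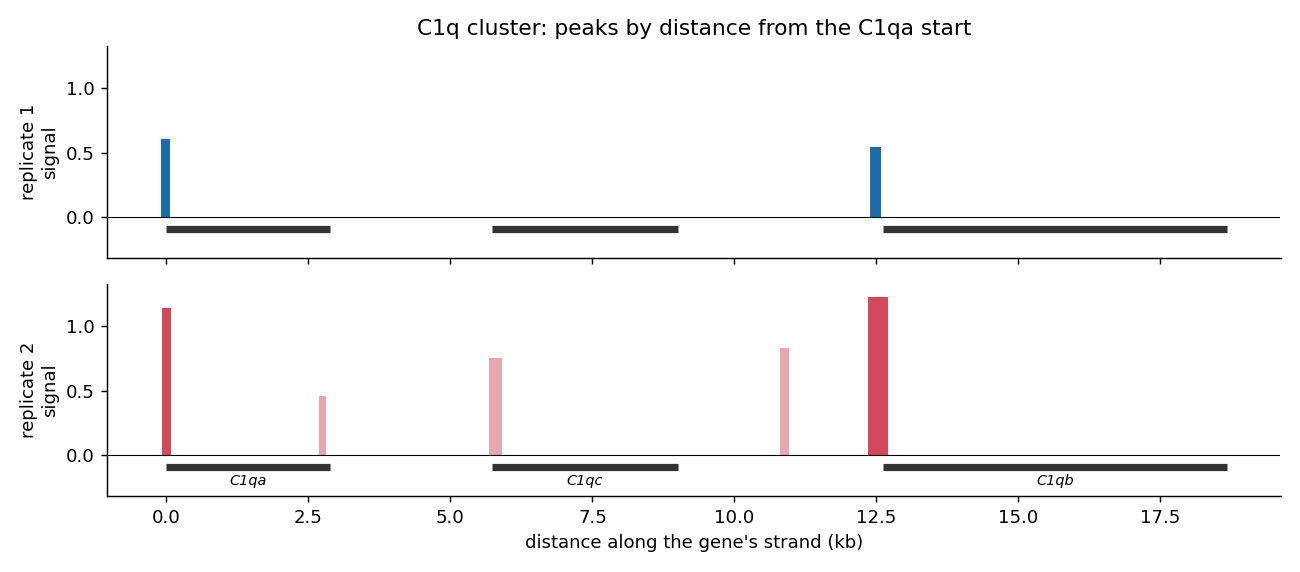
Peaks in the joint window of C1qa and C1qb. The horizontal axis is the distance from the C1qa start in kb along the minus strand, bars are peaks with height equal to the deposited signal (scale not stated) in replicate 1 (top) and replicate 2 (bottom), dark bars are shared peaks, pale bars are in 1 library, and thick lines are gene bodies. The shared bars sit at the starts of C1qa and C1qb, and the bar at the C1qc start is in replicate 2 only.

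The stretches upstream of the starts within these peaks are printed because they are the only member promoters held by both libraries. They are C57BL/6J reference sequence, 5' to 3' on the gene's strand, with capitals for bases in a footprint of replicate 2, a short run where cuts are depleted. C1qa is chr4:136898804-136898903 and C1qb is chr4:136886188-136886460, both on the minus strand. The shorter PU.1 type motif AGAGGAA occurs at positions 9 to 15 of the C1qb stretch, counted from its left end, outside the capitals. That motif occurs in the central 150 bp of 5.31% of all replicate 2 peaks. The C1qb match lies outside the central 150 bp of its peak, so this share is not a background for it.
C1qa upstream: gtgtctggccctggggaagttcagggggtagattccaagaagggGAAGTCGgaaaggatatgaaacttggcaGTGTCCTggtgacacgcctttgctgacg
C1qb upstream: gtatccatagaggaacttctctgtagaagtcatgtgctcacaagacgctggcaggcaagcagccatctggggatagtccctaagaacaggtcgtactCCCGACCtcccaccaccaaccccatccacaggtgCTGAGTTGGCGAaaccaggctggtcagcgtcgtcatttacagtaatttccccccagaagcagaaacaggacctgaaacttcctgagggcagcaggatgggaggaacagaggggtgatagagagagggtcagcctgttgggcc

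The Spi1 window (gene at chr2:91082390-91115756, plus strand) had 3 peaks in replicate 1 and 55 in replicate 2, and all 3 of replicate 1 were shared. Annotated transcripts begin both far upstream and at the main coding start, chr2:91096096, from which distances are given here with upstream negative. The strongest shared peak, chr2:91084261-91084480, lies in an intron of the upstream transcripts, at -11.7 kb. Its signal was 2.11 in replicate 1, with 14.8% of peaks stronger, and 5.08 in replicate 2, with 3.20% stronger. A distal peak in intron 2 (chr2:91101481-91101660) had a signal of 0.849 in replicate 1 and 1.73 in replicate 2. Another over coding exon 5 (chr2:91115121-91115380), the last exon, had 1.65 in replicate 1 and 3.23 in replicate 2. Of the 3, the intron 2 peak was the weakest in both libraries, with 43.0% of peaks stronger in replicate 1 and 10.3% in replicate 2.

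At the Spi1 starts themselves replicate 2 had 7 promoter peaks and replicate 1 had none. The strongest of them, chr2:91082961-91083200, had a signal of 2.24, with 7.92% of peaks stronger, and lies at -13.0 kb. Replicate 1 had 11 bases of cut-rate segments under it. The strongest peak near the main coding start, over exon 1 (chr2:91096581-91096800), had a signal of 1.13, with 16.1% stronger. Upstream enhancers through which PU.1 acts on its own gene are known at Spi1, but the files hold no coordinates for them and these peaks were not matched to them. With promoters set at 2 kb, the shared peak at chr2:91084261-91084480 counts as a promoter peak and Spi1 joins C1qa and C1qb in both libraries.

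**Figure D2:**
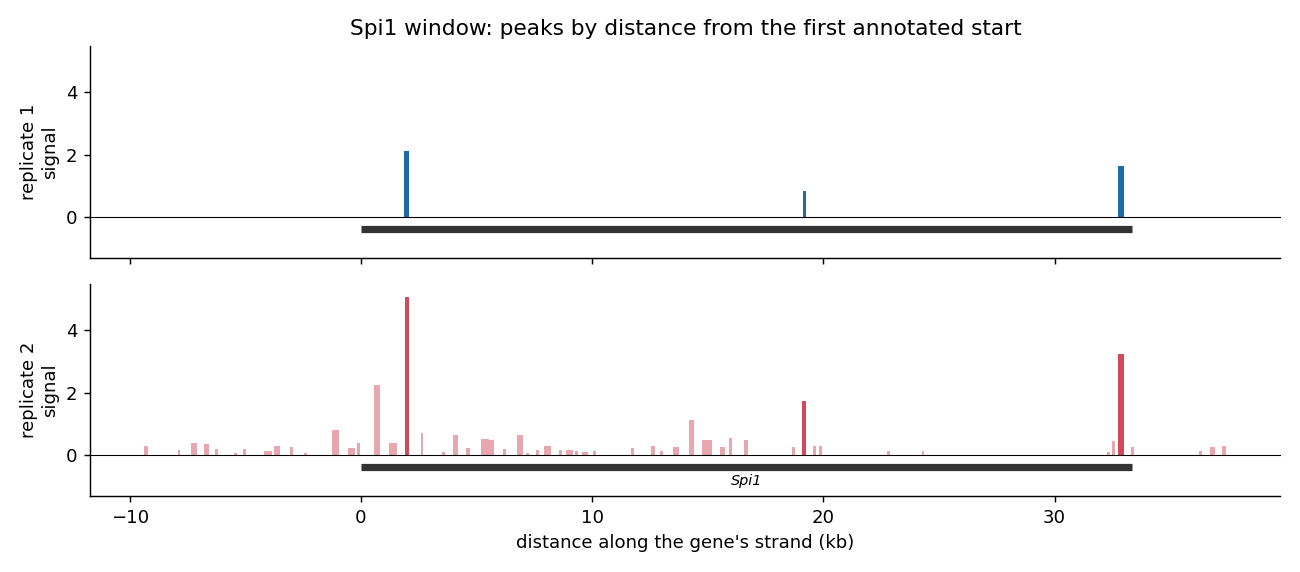
Peaks in the Spi1 window. The horizontal axis is the distance from the first annotated start in kb, bar height is the deposited signal (scale not stated) in replicate 1 (top) and replicate 2 (bottom), dark bars are shared peaks and pale bars are in 1 library, and the thick line is the gene body. Replicate 1 shows 3 bars, each matched in replicate 2, and the tallest of the other replicate 2 bars is at 2.24.

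The upstream Spi1 intervals are printed because they are the strongest of replicate 2 upstream of the main coding start, and the intron 2 interval because its footprint covers a motif. All are on the plus strand of chromosome 2, at the coordinates above, with capitals as before. In the intron 2 interval a CTCF type motif (CC, 2 bases of any kind, CT, 2 of any kind, TGG, sought on both strands) spans positions 106 to 116, and 10 of its 11 bases are in the footprint. CTCF binds insulators and loop anchors in most cell types. The shared interval at -11.7 kb holds 2 E-boxes (CAGCTG), at positions 78 and 157, with 4 bases and 0 bases in footprints. The E-box motif was found in 14.6% and the CTCF type motif in 6.19% of all replicate 2 peaks. Among all shared distal peaks, the set these 2 intervals belong to, the shares were 24.7% and 9.54%.
Spi1 at -11.7 kb: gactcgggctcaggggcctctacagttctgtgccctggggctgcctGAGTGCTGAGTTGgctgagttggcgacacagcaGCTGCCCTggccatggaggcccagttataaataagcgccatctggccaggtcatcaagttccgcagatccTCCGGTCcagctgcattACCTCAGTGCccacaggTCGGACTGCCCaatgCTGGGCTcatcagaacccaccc
Spi1 at -13.0 kb: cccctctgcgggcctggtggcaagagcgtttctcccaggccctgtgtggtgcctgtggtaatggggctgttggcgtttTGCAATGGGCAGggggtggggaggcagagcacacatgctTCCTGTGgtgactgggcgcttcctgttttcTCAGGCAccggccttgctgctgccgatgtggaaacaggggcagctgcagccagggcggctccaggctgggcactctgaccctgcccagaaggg
Spi1 intron 2: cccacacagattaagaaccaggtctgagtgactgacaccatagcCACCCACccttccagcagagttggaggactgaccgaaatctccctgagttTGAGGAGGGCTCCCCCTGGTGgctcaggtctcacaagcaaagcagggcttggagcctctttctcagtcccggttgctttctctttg

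Adgre1 encodes F4/80, the classical surface marker of mouse macrophages. Its window (gene at chr17:57358691-57483527, plus strand) had 1 peak in replicate 1 and 4 in replicate 2, and none was shared. The replicate 2 promoter peak was 83 bp wide, with a signal of 0.476 and 38.9% of peaks stronger. Replicate 1's single peak lay in intron 2 with a signal of 0.310, and 84.6% of its list was stronger. The promoter peak is printed because it ends just before the first exon and holds a footprinted motif. A C/EBP type motif (TTGCNNAA on the other strand, as TTGAGCAA) spans positions 40 to 47, and 7 of its 8 bases are in a footprint. It occurs in 5.45% of all replicate 2 peaks.
Adgre1 promoter, chr17:57358598-57358680, plus strand: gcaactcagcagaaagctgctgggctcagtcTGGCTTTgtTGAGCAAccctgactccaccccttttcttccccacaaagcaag

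Mrc1 encodes the mannose receptor CD206, carried by resident macrophages. Its window (gene at chr2:14229392-14332057, plus strand) had 3 peaks in replicate 1 and 7 in replicate 2, and all 3 of replicate 1 were shared and distal. The peak in intron 9 had a signal of 1.05 in replicate 1 and 1.35 in replicate 2. The peak in intron 15 had 0.732 and 1.54 in the same order. The strongest, 13.3 kb beyond the nearest annotated start and downstream of the gene, had 1.21 and 3.09, with 28.7% and 5.64% of peaks stronger. No cut-rate segment at the threshold reached the Mrc1 promoter in either library. The intron 15 interval is printed because it carries the same CTCF type motif as Spi1 intron 2, at positions 152 to 162, with 10 of 11 bases in a footprint.
Mrc1 intron 15, chr2:14295461-14295680, plus strand: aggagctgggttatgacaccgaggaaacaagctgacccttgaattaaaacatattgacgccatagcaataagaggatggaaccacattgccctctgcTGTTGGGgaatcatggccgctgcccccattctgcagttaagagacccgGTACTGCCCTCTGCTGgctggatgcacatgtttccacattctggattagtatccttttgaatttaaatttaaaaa

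Cx3cr1 encodes the receptor for the chemokine fractalkine, found on monocytes and many tissue macrophages. Its annotated body (chr9:119901616-120069879, minus strand) is long because of a transcript with a far exon, and spans other genes. The window had 17 peaks in replicate 1, 48 in replicate 2 and 13 shared, of which 7 lay at starts of Wdr48, Gorasp1 and Ttc21a, Csrnp1 or Xirp1. With the body of the main transcript (chr9:120048683-120068296) in its place, shared peaks over all members fell from 26 to 14. The promoter peak was in replicate 2 alone, with a signal of 0.488 and 38.1% of peaks stronger. Of the 6 shared distal peaks away from other genes' starts, 1 was upstream of the gene, at -3.45 kb from the nearest start. Its signal was 0.749 in replicate 1, with 49.2% stronger, and 1.67 in replicate 2, with 10.7% stronger. The others lay in the long intron, from 40.6 to 95.5 kb from the nearest Cx3cr1 start. Those at chr9:119972601-119972960 and chr9:119981441-119981720 are in the body of Csrnp1. None of these intron peaks can be assigned to Cx3cr1 alone.

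The upstream Cx3cr1 interval and the single shared interval of Ptprc are printed because each holds a motif in a footprint. Ptprc encodes CD45, the phosphatase on all nucleated blood cells, so it marks leukocytes at large. The Ptprc window (gene at chr1:138062861-138175708, minus strand) had 1 peak in replicate 1 and 6 in replicate 2. Its shared peak lies in intron 2, 38.7 kb from the nearest protein-coding transcript start, with a signal of 0.299 in replicate 1 and 0.706 in replicate 2. It was weak in replicate 1, where 85.5% of peaks were stronger. The Cx3cr1 interval holds 2 E-boxes in a row, at positions 161 to 166 and 167 to 172, each with 6 of 6 bases in the footprint. The Ptprc interval holds a RUNX type motif (TGTGGTT, on the other strand) at positions 95 to 101, with 4 of 7 bases in the footprint. The RUNX type motif was found in 3.11% of all replicate 2 peaks and in 2.92% of all shared distal peaks.
Cx3cr1 at -3.45 kb, chr9:120073204-120073443, minus strand: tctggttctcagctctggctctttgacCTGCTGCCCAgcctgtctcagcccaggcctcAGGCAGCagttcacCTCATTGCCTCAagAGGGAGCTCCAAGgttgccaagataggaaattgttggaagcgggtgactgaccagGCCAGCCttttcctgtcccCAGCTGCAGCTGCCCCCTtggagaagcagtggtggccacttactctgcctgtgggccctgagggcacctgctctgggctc
Ptprc intron 2, chr1:138136501-138136620, minus strand: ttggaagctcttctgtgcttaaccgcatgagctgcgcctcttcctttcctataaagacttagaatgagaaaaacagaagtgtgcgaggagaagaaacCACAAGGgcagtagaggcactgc

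Cd68 encodes a lysosomal membrane glycoprotein and Lyz2 encodes lysozyme. The window of the compact Cd68 gene (gene at chr11:69664213-69666153, minus strand) had 3 peaks in replicate 1 and 38 in replicate 2. The gene body alone had 0 and 4. All 3 shared peaks lay at starts of other genes, 2 at Eif4a1 and 1 at Mpdu1, so none can be assigned to Cd68 alone. Of the replicate 2 peaks, 28 were at other genes' starts. Replicate 2 alone had promoter peaks at Cd68, 4 in all, of which the strongest had a signal of 1.07, with 17.0% of peaks stronger, and no footprint lay within 1 kb of the starts. The Lyz2 window (gene at chr10:117277331-117282321, minus strand) had no peak in replicate 1 and 5 distal peaks in replicate 2, with 33.9% of peaks stronger than the strongest of them. That strongest peak (chr10:117288301-117288457) lies in the body of the neighbouring gene Lyz1 and cannot be assigned to Lyz2. Lyz1 and Lyz2 are near-identical, and reads that fit both genes may have been lost or split, so its values are uncertain.

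Csf1r had a sparse window in replicate 1 and a dense one in replicate 2. Its window (gene at chr18:61100598-61132149, plus strand) had 1 peak in replicate 1 and 84 in replicate 2. The replicate 1 peak was shared (chr18:61108501-61108840) and lies in intron 2 of the main transcript, 2.79 kb from the nearest start. Its signal was 0.732 in replicate 1, with 50.3% of peaks stronger, and 1.67 in replicate 2, with 10.7% stronger, and it was the strongest peak of the window. An intronic enhancer of Csf1r in intron 2 is well known, but the files give no coordinates for it and the peak was not matched to it. Replicate 2 had 9 promoter peaks, of which the strongest had a signal of 0.465, with 39.8% stronger. The median over the 84 peaks was 77.3% stronger, so most were weak for that library.

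**Figure D3:**
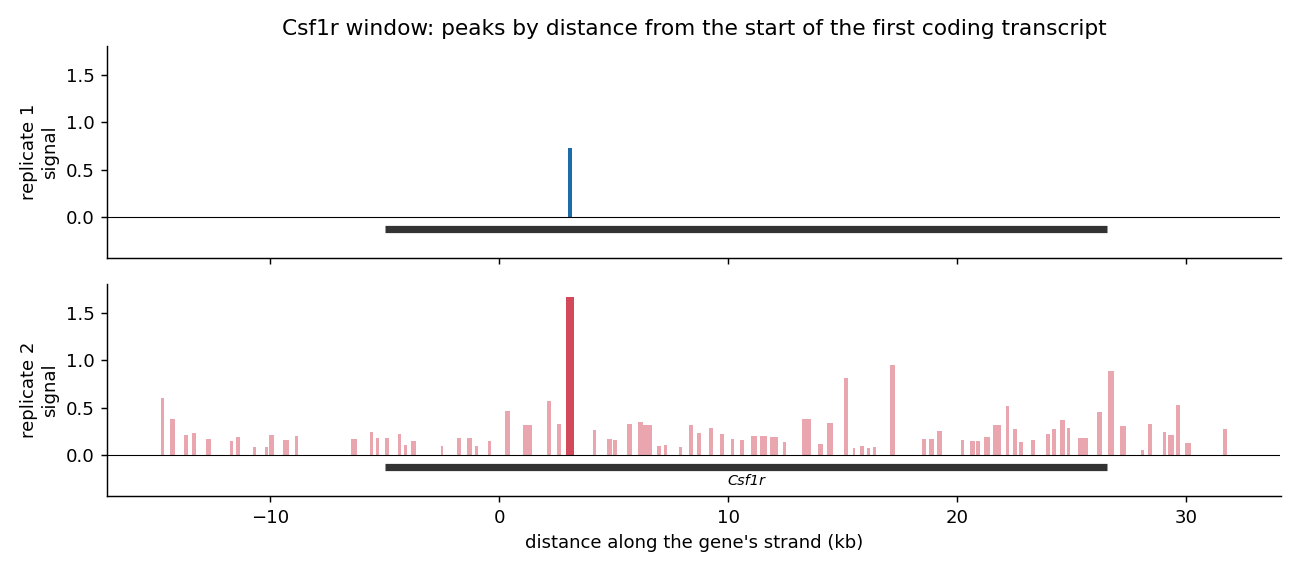
Peaks in the Csf1r window. The horizontal axis is the distance from the start of the main coding transcript in kb, bar height is the deposited signal (scale not stated) in replicate 1 (top) and replicate 2 (bottom), dark bars are shared peaks and pale bars are in 1 library, and the thick line is the gene body. The one replicate 1 bar, at 0.732, is matched by the tallest replicate 2 bar, at 1.67, and the other replicate 2 bars are spread over the window.

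In the full list of replicate 2, Spi1, Csf1r and Cd68 had the densest windows of the members. These 3 genes held 177 of the 252 replicate 2 peaks in the windows (70.2%), and 170 of the 177 (96.0%) were not shared, against 79.8% of all replicate 2 peaks. Cd68 had 17.3 peaks per 10 kb of window in replicate 2 and 1.37 in replicate 1. Csf1r had 16.3 in replicate 2 and 0.194 in replicate 1, and Spi1 had 10.3 and 0.562. The median protein-coding gene had 0.974 in replicate 2 and 0.383 in replicate 1. Of all protein-coding genes, 0.356% had a denser window than Cd68 in replicate 2, 0.656% than Csf1r and 4.13% than Spi1. The other 7 members had from 0.276 (Adgre1) to 2.55 (Cx3cr1) in replicate 2. Much of the contrast came from weaker peaks: among the 66984 strongest peaks of replicate 2, Spi1 kept 6, Csf1r 4 and Cd68 9. Per 10 kb this left 4.10 for Cd68, 1.12 for Spi1 and 0.776 for Csf1r. For Cd68, Spi1 and Csf1r these were still above the 1.37, 0.562 and 0.194 of replicate 1, and the Cd68 window stayed the densest. That density is not of Cd68 alone. In its window, 28 of 38 peaks of the full replicate 2 list and all 3 of replicate 1 lay at other genes' starts. Among the 9 kept at the cut were peaks at starts of Eif4a1, Mpdu1 and Sox15. The median gene at this cut was not computed. C1qa then had 1.75, Cx3cr1 1.43 and C1qb 1.15, all above Spi1 and Csf1r. The C1qa and C1qb windows overlap and count some of the same peaks, so they are not separate values. The Cx3cr1 window spans other genes. With the body of its main transcript it held 7 peaks of the full replicate 2 list in place of 48.

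The cut-rate segments, stretches that the authors list at a false discovery rate of at most 0.05, were broadest at the same 3 genes. In replicate 2 they covered 88.4% of the bases within 1 kb of the starts of Cd68, 78.3% for Spi1 and 58.3% for Csf1r. In replicate 1 the same measure was 0 for Cd68 and Csf1r and 0.234% for Spi1. C1qb had 8.60% in replicate 1 and 21.7% in replicate 2, and C1qa had 8.15% and 18.4%. The share was 4.70% for Cx3cr1, 1.78% for Adgre1 and 0.0935% for Ptprc in replicate 2, and 0 for all of these in replicate 1. The median gene had 8.13% in replicate 1 and 13.8% in replicate 2. Cover above 50%, a line chosen after the values were seen, was met by 0 of 10 members in replicate 1, against 5.42% of genes, and by 3 of 10 in replicate 2, against 11.5%. Of the further myeloid genes, Irf8, Cebpa, Cebpb, Maf, Csf2ra, Cd14, Aif1 and Cd74 were among those that also passed it in replicate 2, as did Cd79b of B cells, Tpsb2 of mast cells, and Acta1, Tnni2, Atp2a1 and Pygm of muscle fibres.

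**Figure D4:**
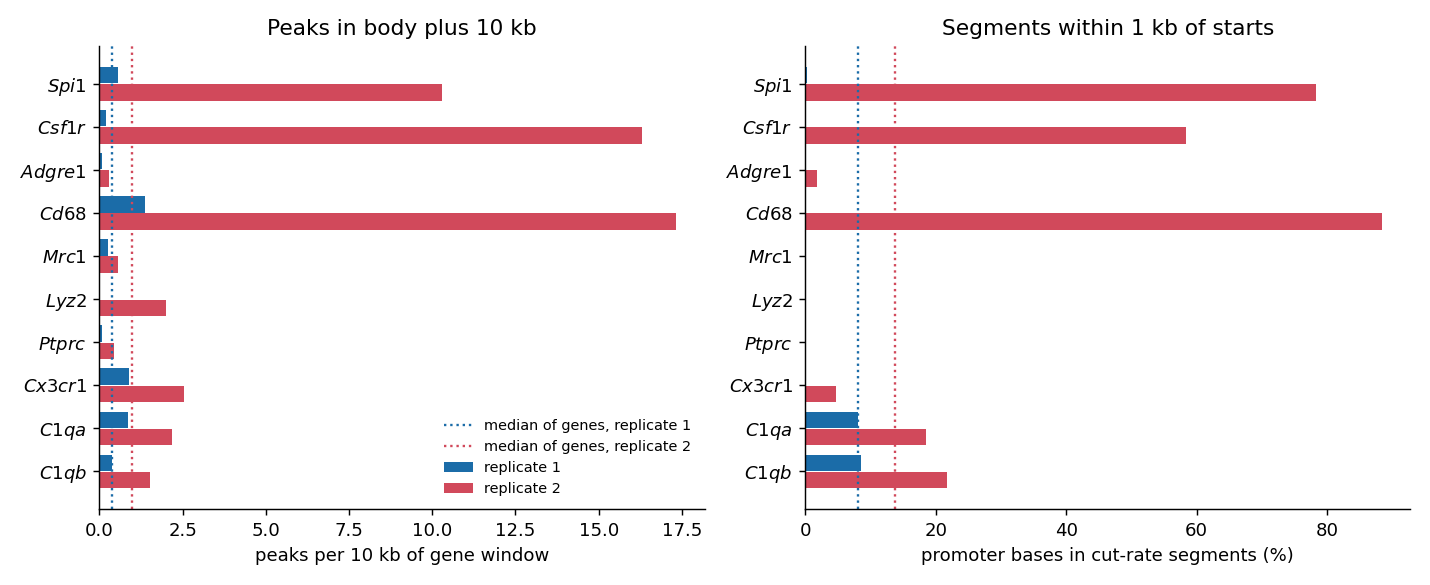
Peaks per 10 kb of window (left) and percentage of bases within 1 kb of annotated starts in cut-rate segments (right) for each member. Blue bars are replicate 1 and red bars replicate 2, and dotted lines are the medians of all protein-coding genes in the same colours. Spi1, Csf1r and Cd68 have the longest bars of replicate 2 in both panels, at 10.3 to 17.3 peaks per 10 kb and 58.3% to 88.4% cover.

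Base composition moved with peak density. Across the 10 members the Spearman correlation between the window's GC content and peaks per 10 kb was 0.673 in replicate 1 and 0.600 in replicate 2, and across all protein-coding genes it was 0.561 and 0.625. Genes are not independent samples, and each library supplies all points of its correlation. Median window GC was 49.2% for the members and 44.5% for all genes. Spi1, Csf1r and Cd68 had 50.3%, 49.0% and 49.9%, but C1qa had 51.5% with 2.18 peaks per 10 kb. The part of base composition in the dense runs was not tested.

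Counted once each, the windows held 31 peaks in replicate 1, 252 in replicate 2 and 26 shared peaks. At least 1 shared peak was found in the windows of 8 of 10 members, against 71.5% of genes. At least 1 shared distal peak away from the starts of other protein-coding genes was found for 5 of 10 (Spi1, Csf1r, Mrc1, Ptprc and Cx3cr1), against 39.7%. Both shares lie near the background. Of the 26 shared peaks, 2 were promoters of members, 10 were at other genes' starts and 14 were neither. Of the 225 replicate 2 peaks that were not shared, 5 (2.22%) touched a cut-rate segment of replicate 1, and for all unshared replicate 2 peaks this was 2.91%. Of the replicate 2 peaks in the windows, 144 (57.1%) were at or below the library's median strength. Replicate 1 had 5 unshared peaks in the windows, 1 at Adgre1 and the others in the long Cx3cr1 intron, and 0 of the 5 touched a segment of replicate 2, against 17.5% of all unshared replicate 1 peaks, too few peaks to read a difference.

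**Figure D5:**
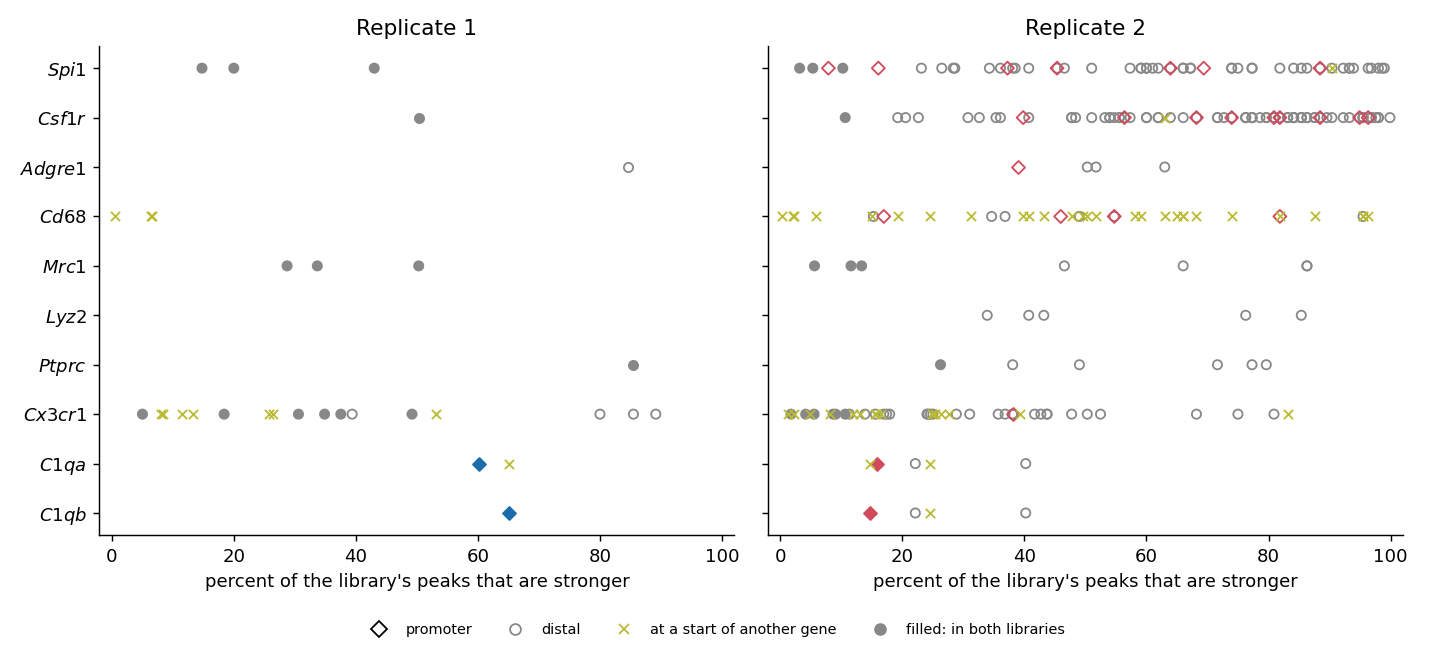
Strength of every peak in the member windows. The horizontal axis is the percentage of the library's peaks that were stronger (left is strong), diamonds are promoter peaks, circles distal peaks, crosses peaks at a start of another protein-coding gene, and filled diamonds and circles are peaks overlapped in the other library. Replicate 1 has diamonds for C1qa and C1qb only, at 60.2% and 65.2%, and the shared peaks of Spi1, Csf1r and Mrc1 lie at 13.4% or below in replicate 2.

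Footprints numbered 82 in the windows in replicate 1 and 322 in replicate 2. A footprint was held by 26 of the 31 replicate 1 peaks in the windows (83.9%), against 75.2% of all that library's peaks, and by 120 of the 252 replicate 2 peaks (47.6%), against 56.1%. The Spi1 starts had 19 footprints in replicate 2 and none in replicate 1. Of 9 motifs sought in the central 150 bp, the PU.1 type GAGGAAGT was in 7 of the 252 replicate 2 peaks (2.78%), against 1.41% of all peaks of that library, and in 0 of the 26 shared peaks. The RUNX type motif was in 5.95% of the 252, against 3.11%, and the E-box in 14.7%, against 14.6%. AP-1 (TGANTCA) was in 7.94%, against 5.44%, the shorter PU.1 type in 5.95%, against 5.31%, and the IRF type (GAAANNGAA) in 2.38%, against 2.78%. The C/EBP type was in 6.35%, against 5.45%, and the ETS core (CCGGAAGT) in 0.794%, against 0.597%. In the shared peaks AP-1 was in 3.85%, against 6.45% of all shared peaks, and the IRF type in 0, against 2.42%. The RUNX type was in 3 of the 26 (11.5%), against 2.26%, and the ETS core in 2 (7.69%), against 1.91%. Of the 16 shared peaks away from other genes' starts, 2 held the RUNX type and 0 the ETS core. The C/EBP type was in 7.69% of the 26, against 5.71%, and the shorter PU.1 type in 3.85%, against 4.54%. The E-box was in 19.2% of both sets, and the PU.1 type GAGGAAGT in 1.32% of all shared peaks. The CTCF type motif, added after the sequences were seen, was in 4 of the 26 shared peaks (15.4%), against 7.83% of all shared peaks. A match is a run of letters and does not show that the factor was bound.

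Of 58 further myeloid genes, 27 (46.6%) had a promoter peak in replicate 1, 46 (79.3%) in replicate 2 and 26 (44.8%) in both. The shares over all protein-coding genes were 60.7%, 70.8% and 60.0%. The list lay below them in replicate 1 and in both, and above in replicate 2. Its median promoter CpG ratio was 0.276, and genes in the members' CpG range had shares of 20.4%, 36.1% and 19.5%. The list lay above each of those, though some of its genes have ratios above that range. Of 9 transcription factors 8 had a promoter peak in both libraries, among them Irf8, Cebpa, Cebpb, Runx1, Maf, Ikzf1 and Nr1h3. Several of these also act outside the myeloid lineage, and Irf8, Cebpa, Cebpb and Maf have promoter CpG ratios above that of the median gene. Irf8, a regulator of monocyte and macrophage differentiation, had signals of 3.67 and 6.83 in replicates 1 and 2. The growth factors Csf1 and Il34, which bind the receptor encoded by Csf1r and are made by other cells, had a promoter peak in both libraries, with Csf1 at 1.80 and 4.60 and Il34 at 0.222 and 0.532. The Il34 peak was weak in replicate 1, where 90.7% of peaks were stronger. Of 21 receptors 6 had one in both: Csf2ra, Fcgr3, Mertk, Tlr2, Tlr4 and Sirpa. Of 12 signalling genes 5 did, among them Lyn, Syk, Coro1a and Lcp1, of 8 lysosomal and oxidase genes 3 (Cyba, Ncf4 and Lgals3), and of 5 antigen presentation genes 2, H2-Aa and H2-Ab1. The first 5 of 11 without a promoter peak in either library were Csf3r, Itgam, Itgax, Ccr2 and Clec7a.

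Tyrobp, Fcer1g and Laptm5 encode signalling adaptors and a lysosomal protein of leukocytes, and were picked after their values were seen. They had a promoter peak in replicate 2 alone. Their replicate 2 signals were 0.964, 0.992 and 1.20. Cd163 and Trem2, receptors of resident macrophages, were also called in replicate 2 alone, with 0.555 and 0.577. Of the 21 receptors listed, 8 were called in replicate 2 alone, 6 in both libraries and 6 in neither, Lyve1 among the last. Folr2 was called in replicate 1 alone, with a signal of 0.404. In replicates 1 and 2, promoter peaks were called at 60.7% and 70.8% of all protein-coding genes. For genes in the members' CpG range the shares were 20.4% and 36.1%. In the same order, marker lists of other leukocytes gave 0 and 2 of 8 neutrophil genes and 2 and 3 of 8 T cell genes. They gave 1 and 5 of 6 B cell genes, and 1 and 2 of 6 mast cell genes. Among T cell genes the peaks in both libraries were at Lck and Cd2. For other residents of muscle the counts were 8 and 10 of 10 endothelial genes. They were 6 and 9 of 10 genes of fibro-adipogenic progenitors, the connective tissue cells of muscle. The progenitor count in replicate 1 was near the share of all genes and above that of genes in the members' CpG range. The median CpG ratio of the progenitor list was 0.225. The part of other leukocytes in the member peaks was not tested.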

How the data were processed

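DNase-seq was run on 2 libraries of 1 group. Per the labels, positions are on mm10, and per the README among the deposited files, every file derives from the alignments of its own library. The aligner and peak caller were not given in the sources used here. The authors deposited 2 peak lists per library with a signal value whose scale is not stated. The longer list was used, and the shorter as an alternative. Deposited p-value columns give the false discovery rate of cut-rate segments, at most 0.05, and a constant 0.01 for footprints. Depth is unknown.

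Gene bodies and starts came from GENCODE release M21 and sequence from the GRCm38 reference. A window is the body plus 10 kb, a promoter peak has its midpoint within 1 kb of any start, and sharing takes 1 bp of overlap, after which touching intervals were merged. CpG ratios were taken over 500 bp upstream and downstream of a gene's first base. Overlap functions were tested on simulated data, where 700 of 700 planted overlaps among 2000 peaks were recovered, and checked with bedtools 2.31.1 on the real lists, with 51474 peaks of replicate 1 overlapping in both counts. Python 3.11.15, numpy 2.4.6 and pandas 2.3.3 were used.

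Members and lists were chosen with earlier results of these data known. All 10 members are described, as are further myeloid genes with a promoter peak in both libraries and up to 5 with none. Some genes of the lists are counted but not reported here by name. Others named (Tyrobp, Fcer1g, Laptm5, Cd163, Trem2, Folr2, Lyve1, C1qc, Lck, Cd2 and the genes with segment cover above 50%) were chosen after their values were seen. Alternatives varied promoter width, starts, window, list, strength, overlap and library.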

Additional observations from a re-analysis of the deposited data

How the results depend on the processing

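With 2 libraries in 1 group, no test was made, and the labels do not settle whether the libraries come from separate animals. Of 51 alternative values of the 8 counts, 29 stayed within 1.5 times the reported value. With the shorter peak lists, 0 members had a promoter peak in replicate 1 and 0 in both, and shared peaks in the windows numbered 16. With only peaks above each list's median the first counts were also 0 and 0, and replicate 2 had 108 peaks in the windows. With equal numbers of peaks, replicate 2 had promoter peaks at 4 members and 53 peaks in the windows. Shares over all genes were computed at the reported settings only, so these alternative counts have no background. Gene bodies alone held 164 peaks of replicate 2, 17 shared peaks, and 51 and 203 footprints in replicates 1 and 2. Windows of 50 kb held 56 and 430 peaks, 49 shared peaks, and 162 and 577 footprints. Without peaks at other genes' starts, 16 shared peaks were left. With the body of the main Cx3cr1 transcript, an alternative chosen after the data were seen, replicate 1 had 15 peaks and 14 were shared. Leaving out 1 library, members with a promoter peak ranged from 2 (without replicate 2) to 7 (without replicate 1), and peaks counted in place of shared ones from 31 to 252. Depth limits are unknown because no read totals are in the files used here. No paired analysis was possible because the libraries form 1 group.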
